A study of Mus musculus with 13 samples.

Results

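The mRNAs of the oxidative phosphorylation machinery were examined in the livers of Balb/c mice that had received antisense oligonucleotides (ASOs). Members were taken from the rows of the liver table marked protein-coding by a fixed pattern of gene symbols, which covers the Nduf, Sdh, Uqcr, Cox4 to Cox8 and Atp5 names with Cyc1 and Cycs. The pattern found 87 genes among 11779 rows, of which 11396 are protein-coding. Of these members, 77 encode nuclear subunits of the 5 complexes, 36 of complex I, 4 of complex II, 9 of complex III, 11 of complex IV and 17 of complex V. Cycs encodes cytochrome c, and the other 9 are assembly factors that carry subunit-like names, namely 8 complex I factors (Ndufaf) and Cox7a2l, which acts in supercomplex assembly. Ndufa4, named as a complex I gene, was placed with complex IV, where its protein resides.

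Liver libraries came from 3 mice given a GalNAc-conjugated mix of 5 ASOs against the lncRNA LL35 and from 3 mice given a GalNAc-conjugated ASO against firefly luciferase (Luc ASO), all collected on day 5 after injection. All 6 mice therefore carried a conjugated ASO, and no untreated liver was included. The labels give 150 mg/kg for each LL35 ASO, whereas the study's methods describe that dose as the total of the mix, and the dose of the Luc conjugate is not stated in the labels. The labels count 5 ASOs in the mix, but the study's list of conjugated oligonucleotides names fewer against LL35. Age and sex are not given in the sources used here. GalNAc is a sugar that hepatocytes take up through the asialoglycoprotein receptor, but the RNA was isolated from whole liver pieces.

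For each gene, the level used here is the authors' mean normalized count, which averages LL35 ASO and Luc ASO livers together. It has no value for a single mouse, so no error, no spread between mice and no difference between LL35 ASO and Luc ASO livers is given. Reads per library are unknown, and the depth behind each value is unknown too. Because long transcripts collect more reads, levels below are mean normalized counts divided by the gene's exon length in kilobases (kb). Values per kb of coding sequence (coding length) and undivided mean normalized counts are named as such. The median level of the 11385 protein-coding rows with a known length was 52.1 normalized counts per kb. In bulk tissue, fewer cells of a type and less RNA per cell cannot be told apart. All 6 hepatocyte markers looked up (Alb, Apoa1, Ttr, Fgb, Hnf4a and Cps1) are among the rows, at 2550 to 519843 normalized counts per kb, while 0 of 4 striated muscle markers and 0 of 2 brown fat markers are. All 4 Kupffer cell, 3 endothelial, 3 stellate cell and 2 erythroid markers were also present, at 18.2 to 791 normalized counts per kb, so the levels are those of a mixture of cells. Of 3 cholangiocyte markers only Sox9 is among the rows, at 9.94. Why a gene has no row is not known, so a missing marker is not read as a low level.

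Oxidative phosphorylation moves electrons from NADH through complex I, or from succinate through complex II, to ubiquinone, then through complex III and cytochrome c to complex IV, which reduces oxygen. Complexes I, III and IV pump protons across the inner mitochondrial membrane, and complex V (ATP synthase) uses the gradient to make ATP. Most subunits are encoded in the nucleus and imported, while a small set of hydrophobic core subunits is encoded by mitochondrial DNA, and complex II is entirely nuclear. Hepatocytes are rich in mitochondria and rely on this pathway for gluconeogenesis and urea synthesis. NRF1, GABPA, YY1 and the ERR receptors are known transcription factors of this gene group.

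The promoter sequences of the members were searched for the motifs of these factors, and the stretches below show what an NRF1 match looks like in genes of different complexes. They were chosen after the matches were seen, because Sdha and Ndufb4 hold several matches, Cox6a1 is the highest member of complex IV per kb of exon and Cycs is the mobile carrier. Atp5g2 and Atp5g3 encode the same ring subunit of ATP synthase, and the Atp5g3 stretch shows an ERR match. The promoter of Atp5g3 also holds an NRF1 match, which is not printed, so the printed motifs are not a contrast between these genes. Sequences are from RefSeq on the build GRCm38.p6 and lie before the annotated start, written 5′ to 3′ on the gene's own strand, with each match in capitals and overlapping matches run together. Their positions are chr13:74350241-74350348 for Sdha, chr16:37654372-37654569 for Ndufb4, chr5:115349057-115349130 for Cox6a1, chr6:50566612-50566640 for Cycs, chr15:102671070-102671099 for Atp5g2 and chr2:73911360-73911388 for Atp5g3, all on the minus strand.
Sdha: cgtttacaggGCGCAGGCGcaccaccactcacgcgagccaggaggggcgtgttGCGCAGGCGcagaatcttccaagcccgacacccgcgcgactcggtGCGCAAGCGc
Ndufb4: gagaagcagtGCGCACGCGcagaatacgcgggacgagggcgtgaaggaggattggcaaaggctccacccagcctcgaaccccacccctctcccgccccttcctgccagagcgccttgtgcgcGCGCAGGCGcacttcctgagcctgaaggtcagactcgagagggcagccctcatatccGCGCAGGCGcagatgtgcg
Cox6a1: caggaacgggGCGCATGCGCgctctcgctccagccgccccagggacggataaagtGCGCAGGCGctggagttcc
Cycs: catgctagctCGCATGCGCgcgcacaaac
Atp5g2: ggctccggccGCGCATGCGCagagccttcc
Atp5g3: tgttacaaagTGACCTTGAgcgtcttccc

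Members were abundant in the liver, and their levels differed between complexes. Of the 77 subunits, 74 lay above the median of the listed protein-coding genes and 49 lay in the top 10% of them. The median subunit stood at 434 normalized counts per kb, 8.34 times the median gene, at percentile 92.3. The 87 members together held 0.811% of all normalized counts in the table. The subunits of complex V took the largest part of the members' counts, 38.5%, followed by complex I with 22.5%, complex III with 13.9%, complex IV with 13.8% and complex II with 9.58%.

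Complex I had the lowest median of the 5 complexes, 331 normalized counts per kb. The medians of complexes II, III and IV were close to each other at 858, 892 and 859 normalized counts per kb. Complex V stood at 373 normalized counts per kb, 1.13 times complex I, with the widest spread between its members. In these values, complex III exceeded complex I by 2.69 times, complex IV by 2.60 times and complex II by 2.59 times. Only 1 of the 36 complex I subunits, Ndufb11, lay above the median of complex III, and no complex III subunit lay below the median of complex I. Across all pairs of a complex I and a complex III subunit, the complex I subunit was the lower in 95.7%, against 57.5% for pairs of complex I and complex V. For complexes II and IV the pairs were split almost evenly, with the complex II subunit the lower in 52.3% of them. With any 1 gene left out, the median of complex I stayed between 328 and 334, that of complex V between 370 and 393, and those of complexes II, III and IV between 726 and 991, 873 and 899, and 779 and 938 normalized counts per kb. Genes of a complex are not replicates and no values of single mice were used, so these are descriptions and no test was run on them.

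**Figure D1:**
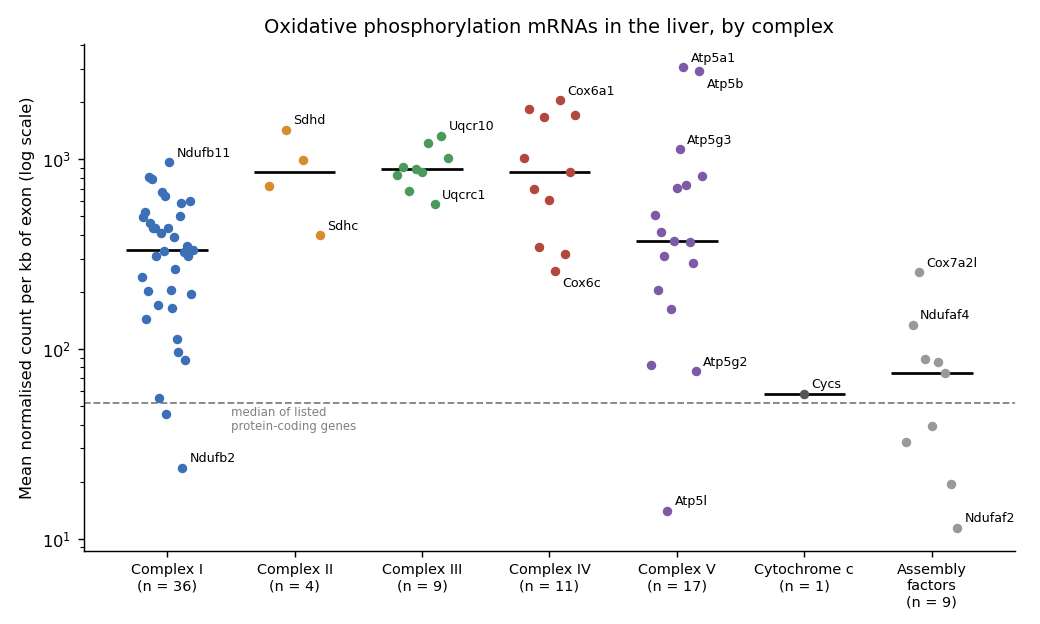
Mean normalized count per kb of exon (y axis, log scale) of the 87 members by complex, 1 point per gene, with the median of each group as a black bar and the median of the listed protein-coding genes, 52.1, as a dashed line. Complexes II, III and IV share medians between 858 and 892, while the points of complex V run from 14.1 (Atp5l) to 3067 (Atp5a1).

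How length is counted changed the order among the upper complexes. With the mean normalized count divided by the longest annotated coding sequence, complex IV stood at 25.4 times the median gene and complex V at 15.3 times, ahead of complexes II (13.7 times) and III (13.3 times). Of the 10 settings compared, the setting with a minimum mean normalized count removed no subunit and could not change the order. Complex I was the lowest of the 5 under each setting, at 5.87 times the median gene with coding length. Its margin was smallest when the genes of the tissue-specific isoform families were left out, an alternative that removes most genes of complex IV, which then stood at 1.04 times complex I.

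**Figure D2:**
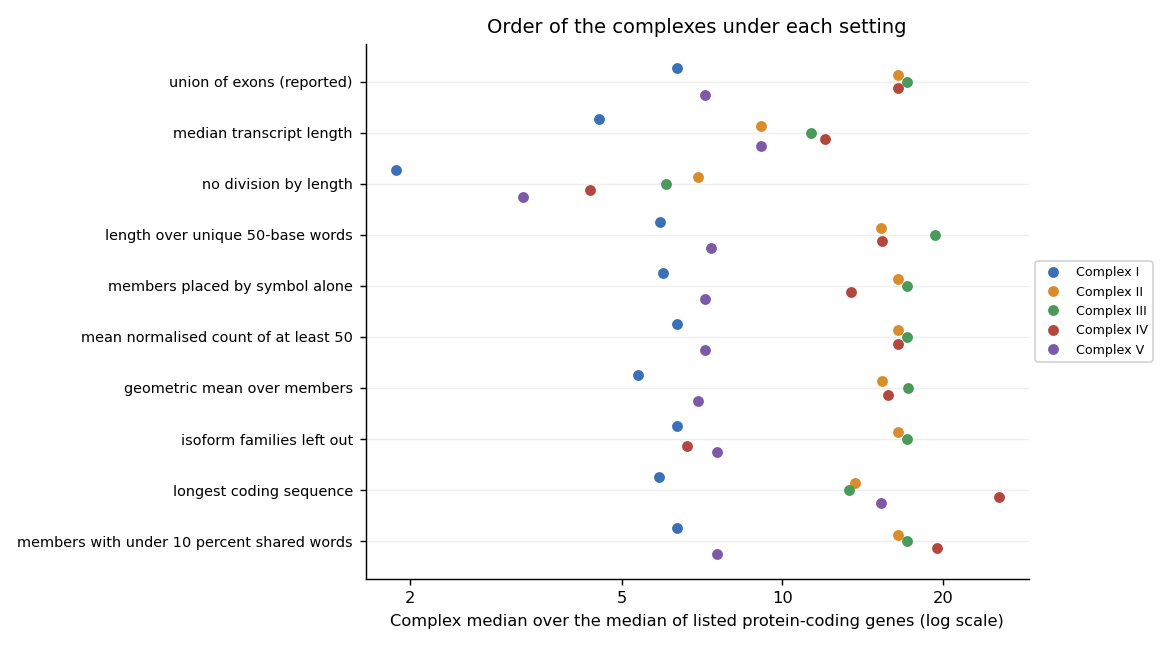
Median of each complex over the median of the listed protein-coding genes (x axis, log scale) under the reported setting and 9 alternatives (rows), with 1 colour per complex and points shifted slightly up or down to keep them apart. Complex I is the leftmost point in every row, and complex IV moves from 16.5 with exon length to 25.4 with coding length. The row with a minimum mean normalized count repeats the reported setting, since no subunit falls under that minimum.

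Complex I, the NADH dehydrogenase, is built on 7 nuclear core subunits that carry the flavin and iron-sulfur clusters and on many accessory subunits. Among the core subunits, Ndufv1, which binds the flavin at the NADH site, stood at 499 and the iron-sulfur subunit Ndufv2 at 433 normalized counts per kb. Ndufs7 and Ndufs8, which carry the last clusters before the quinone, were nearly equal at 328 and 325 normalized counts per kb of exon. Per kb of coding sequence they stood at 839 and 659. On that scale Ndufv1, at 945, lay below Ndufv2, at 1250. Ndufs3 stood at 241 per kb of exon. Ndufs1, the largest subunit, had the lowest value per kb of exon, 204, but its mean normalized count of 1653 was the highest of complex I, and its exons add up to 8086 bases, of which 2181 are coding.

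The 29 accessory subunits of complex I had a median of 334 normalized counts per kb, close to the 328 of the core subunits, but ranged much more widely, from 23.7 to 966. On the log2 scale the SD between genes was 1.33 for accessory and 0.58 for core subunits. Ndufb11, Ndufb9 and Ndufa2 were the highest at 966, 812 and 784 normalized counts per kb. By name family, the 13 Ndufa genes had a median of 410 normalized counts per kb, and the 11 Ndufb genes, which lie in the membrane arm, one of 171. With coding length these medians were 1120 and 966, the latter without Ndufb1, which has no annotated coding sequence, and their ratio was 1.16. Without Ndufb1 the Ndufb median per kb of exon was 260, so part of the smaller gap comes from leaving out that gene. Per kb of coding sequence, Ndufa6 was the highest of complex I at 2308. Ndufb2, at 23.7, Ndufb4, at 45.5, and the acyl carrier protein Ndufab1, at 55.2, were the lowest per kb of exon. The other 23 accessory genes lay between Ndufb7 at 88.1 and Ndufa8 at 671. Among them, Ndufa10 had the highest mean normalized count of the accessory genes, 1035, Ndufs6 stood at 462 and Ndufs4, whose loss causes a Leigh-like disease, at 194 normalized counts per kb.

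These low values rest partly on the length used. Ndufb2 has 5628 bases of annotated exon but only 315 coding bases, and with coding length its percentile among the protein-coding genes rose from 27.8 to 74.2. Ndufab1 has 6883 exon bases and 468 coding bases, and its percentile rose from 51.6 to 85.4. Ndufb4 was low on both scales, at percentiles 45.8 and 58.3, with a mean normalized count of 87.3, the lowest of all subunits. For Ndufb4, 18.3% of its 50-base words also occur in another annotated gene, and reads that fit several places are not counted by the option the authors used. The part of such shared sequence in its low level was not tested.

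The 8 Ndufaf assembly factors, which help build complex I and are not part of it, had a median of 57.0 normalized counts per kb, close to the median gene. All 8 lay below the median of the complex I subunits, and 2 of them, Ndufaf5 at 19.5 and Ndufaf2 at 11.5, lay below the lowest subunit. With coding length, 7 of 8 lay below the complex I median of 989, Ndufaf4 at 1012 lay just above it, and 6 of 8 lay below the lowest subunit, Ndufb4 at 225. Per kb of exon, Ndufaf4 was the highest at 135 and exceeded 6 of the 36 subunits. Between them stood Ndufaf1 at 88.9, Ndufaf8 at 85.3, Ndufaf6 at 74.6, Ndufaf3 at 39.4 and Ndufaf7 at 32.5 normalized counts per kb. Ndufaf2 and Ndufaf5 were the only members with a mean normalized count under 50, at 34.1 and 35.0, and 64.1% of the 50-base words of Ndufaf2 are shared with another annotated gene.

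Complex II, succinate dehydrogenase, also works in the tricarboxylic acid cycle. Its membrane anchor gene Sdhd had the highest level, 1432 normalized counts per kb, followed by the flavoprotein Sdha at 991, the iron-sulfur protein Sdhb at 726 and the other anchor Sdhc at 398. In mean normalized counts the order was different, with Sdha highest at 4090 and Sdhc lowest at 1294. The ratio of Sdha to Sdhb was 1.37 per kb of exon and 1.07 per kb of coding sequence. The ratio of Sdha to Sdhc turned with the scale, from 2.49 per kb of exon to 0.80 per kb of coding sequence, where Sdhc at 2553 stood second to Sdhd at 3694. By exon length all 4 genes lay at or above percentile 91.5.

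Complex III, the cytochrome bc1 complex, had the narrowest spread per kb of exon, with 2.30-fold between its lowest and highest genes and an SD of 0.38 on the log2 scale. Per kb of coding sequence it spanned 4.39-fold and complex II only 1.92-fold. By exon length Uqcr10, a small accessory subunit, was the highest at 1333 normalized counts per kb, and the Rieske iron-sulfur protein Uqcrfs1 stood next at 1226. Uqcr11 followed at 1019. The core protein Uqcrc2 reached 907, Uqcrq 892, Uqcrb 854 and the hinge protein Uqcrh 828 normalized counts per kb. Cytochrome c1, encoded by Cyc1, at 685 and the core protein Uqcrc1 at 579 were the lowest. With coding length the order was different, with Uqcrq first at 6636 and Uqcrfs1, at 2033, in place 6 of 9. The mean normalized counts of the partner core proteins Uqcrc1 and Uqcrc2 differed by a ratio of only 1.03, and their levels per kb of coding sequence by one of 0.98, so the gap per kb of exon follows from the 4135 and 2552 exon bases annotated.

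Cytochrome c, the soluble carrier between complexes III and IV, had a level of only 58.2 normalized counts per kb from a mean normalized count of 198. Cyc1 exceeded Cycs 11.8-fold per kb of exon and 2.41-fold per kb of coding sequence. Of the 50-base words of Cycs, 26.1% occur in another annotated gene, and its exon length of 3404 bases holds a coding sequence of 315 bases. With coding length Cycs stood at percentile 81.5 and with exon length at 53.1.

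Complex IV, cytochrome c oxidase, was led by Cox6a1 at 2051, Cox6b1 at 1844, Cox8a at 1722 and Cox4i1 at 1674 normalized counts per kb of exon. Per kb of coding sequence Ndufa4 led at 5709, followed by Cox8a at 5150, Cox4i1 at 5119 and Cox6b1 at 5061, and Cox6a1 at 4286 stood behind Cox7b at 4345. These nuclear subunits surround the catalytic core, which is encoded by mitochondrial DNA. By exon length Ndufa4 followed at 1017, then Cox7b at 859, Cox7a2 at 700 and Cox5a at 612. The lowest genes were Cox7c at 345, Cox5b at 316 and Cox6c at 258 normalized counts per kb. Cox6c has 3567 exon bases for 228 coding bases, and per kb of coding sequence it reached 4044, close to Cox6a1 at 4286. Its place at the bottom of complex IV is therefore seen on 1 scale and not on the other.

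Several subunits of complex IV have tissue-specific partners, and only the widely expressed forms are among the rows. Cox6a1, Cox7a2 and Cox8a are listed, whereas the heart and muscle forms Cox6a2, Cox7a1 and Cox8b are not. Cox4i2, the testis forms Cox6b2, Cox7b2 and Cox8c, and the paralogue Ndufa4l2 are also not among the rows and were not analysed here. Why a gene has no row is not known: the lowest mean normalized count in the table is 15.6, but 6 of the 13 mitochondrially encoded subunits also have no row although the others are very abundant, so nothing is said here of the level of an unlisted gene. Cox7a2l, related in sequence to Cox7a2, stood at 254 normalized counts per kb, and Cox7a2 exceeded it 2.75-fold. The complex I subunit gene Ndufs5 is likewise not among the rows.

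Complex V spanned 218-fold, from Atp5l at 14.1 to Atp5a1 at 3067 normalized counts per kb, with an SD of 1.91 on the log2 scale. In the catalytic head F1, Atp5b and Atp5a1, the beta and alpha subunits, had the highest mean normalized counts of all members, 12306 and 9614. Their levels per kb of exon were close, 2905 for Atp5b and 3067 for Atp5a1, and per kb of coding sequence they were 7755 and 5795. The gamma subunit Atp5c1 stood at 814, the delta subunit Atp5d at 706 and the epsilon subunit Atp5e at 368 normalized counts per kb of exon. With coding length this order turned, with Atp5e at 4138, Atp5d at 2702 and Atp5c1 at 1738. The ratio of Atp5b to Atp5c1 was 3.57 per kb of exon and 4.46 per kb of coding sequence. For Atp5b to Atp5d it was 4.11 and 2.87. Alpha and beta are present in several copies in each enzyme and gamma in a single copy, but a relation of the mRNA ratios to copy number was not tested.

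The ring of identical c subunits that turns in the membrane is encoded by Atp5g1, Atp5g2 and Atp5g3, which differ in their import sequences. Atp5g3 was the main source of c subunit mRNA, at 1131 normalized counts per kb, against 162 for Atp5g1 and 76.6 for Atp5g2. It made up 82.6% of the summed level of the 3 genes by exon length and 72.2% by coding length. Atp5g1 made up 11.8% and 24.2%, and Atp5g2 made up 5.60% and 3.63%. The order of the 3 genes was the same on both scales. In Atp5g2, 38.3% of the 50-base words are shared with another annotated gene, while Atp5g3 shares none.

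In the peripheral stalk, which holds F1 still, Atp5h stood at 731, Atp5pb at 508, Atp5o at 308 and Atp5j at 286 normalized counts per kb. Atp5o had the largest share of words found elsewhere among the subunits, 41.6%, and counting only its unique words raised its level to 528. Among the small membrane subunits, Atp5mpl stood at 413, Atp5k at 373, Atp5j2 at 206, Atp5md at 82.7 and Atp5l, a subunit of the dimer interface, at 14.1. Per kb of coding sequence Atp5mpl stood at 2891, Atp5j2 at 2577, Atp5md at 1310 and Atp5k at 1079. Atp5l was the lowest subunit of all by exon length, which counts 6443 bases, and its mean normalized count was 90.8. With its 309 coding bases it rose from percentile 16.8 to 65.6, but it still lay next to Atp5g2 at the bottom of complex V, at 294 against 293 normalized counts per kb.

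**Figure D3:**
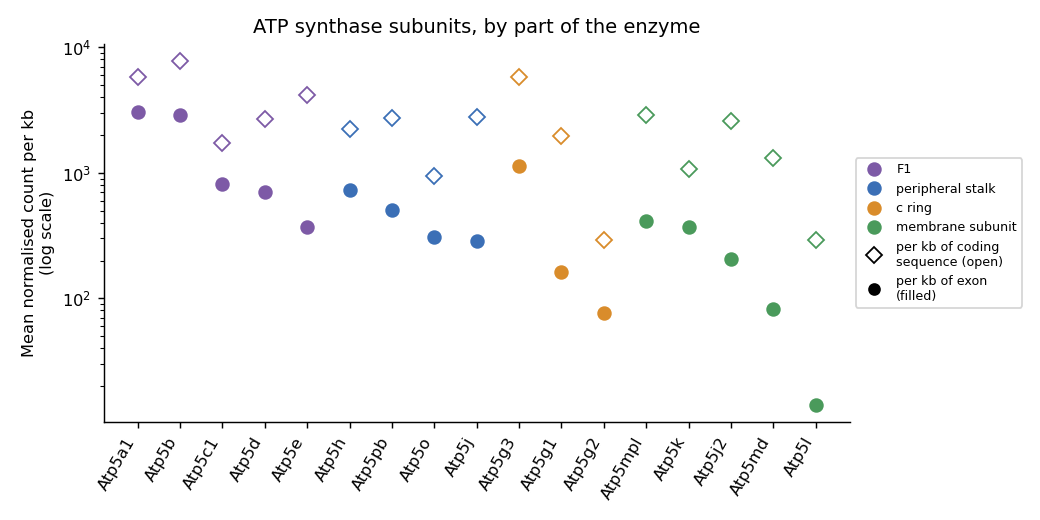
Mean normalized count per kb (y axis, log scale) of the 17 complex V genes, ordered by part of the enzyme and coloured by it, with filled circles per kb of exon and open diamonds per kb of coding sequence. Atp5a1 and Atp5b lead per kb of exon (3067 and 2905), Atp5b (7755) and Atp5g3 (5831) lead per kb of coding sequence, and Atp5g3 lies above Atp5g1 and Atp5g2 on both.

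Across the 76 subunits with an annotated coding sequence, longer coding sequences went with higher mean normalized counts (Spearman's rho 0.44) and not with higher levels per kb of exon (rho 0.03). Per kb of coding sequence, longer coding sequences went with lower levels (rho -0.31), so that scale tends to place genes with short coding sequences higher. The levels per kb of exon and per kb of coding sequence ranked the genes alike in part (rho 0.73). These correlations are across genes that share the same libraries, and genes are not independent replicates. Among the members, 20 of 87 (23.0%) shared over 10% of their 50-base words with another annotated gene, against 16.9% of the protein-coding rows. A pseudogene row of the same name pattern, Ndufa12-ps, had a mean normalized count of 71.8, and 78.8% of its words occur in another annotated gene, so reads of it and of Ndufa12, at 152, are uncertain.

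Mitochondrially encoded subunits stood far above the nuclear ones. Of the 13, 7 are among the rows, between 8701 (mt-Nd4) and 49494 (mt-Co1) normalized counts per kb, with a median of 24816. The lowest of them was higher than Atp5a1, the highest nuclear subunit. mt-Cytb, the only complex III subunit encoded there, stood at 36013, and mt-Nd1 at 41658 normalized counts per kb. These 7 genes held 2.07% of all normalized counts, against 0.811% for the 87 members. Of the 50-base words of mt-Nd4 and mt-Co1, 62.2% and 51.1% occur in another annotated gene. A mitochondrial genome is present in many copies per cell, and levels from both genomes are set side by side without a test.

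**Figure D4:**
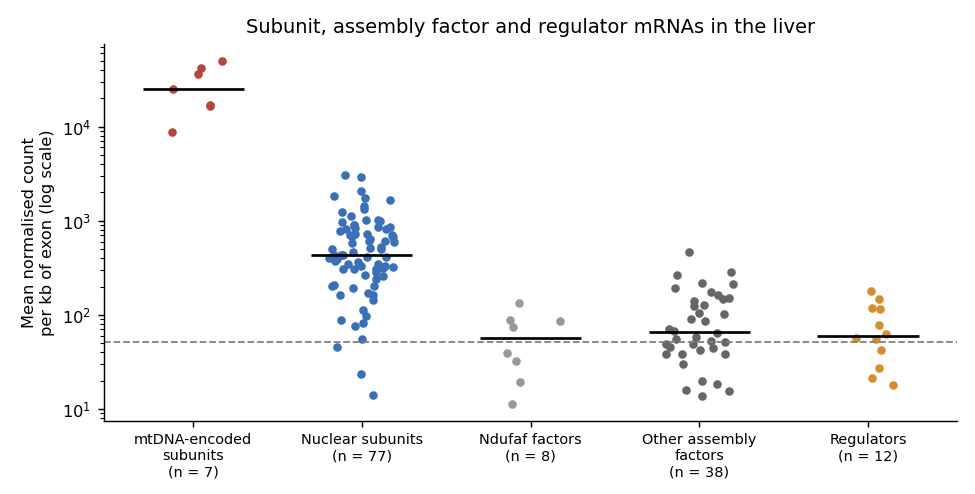
Mean normalized count per kb of exon (y axis, log scale) for 7 mitochondrially encoded subunits, 77 nuclear subunits, 8 Ndufaf factors, 38 other assembly factors and 12 regulators, 1 point per gene, with medians as black bars and the median of the listed protein-coding genes as a dashed line. The nuclear subunits have a median of 434, and the Ndufaf factors, the other assembly factors and the regulators lie near the dashed line with medians of 57.0, 65.8 and 59.7.

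Some motifs differed in frequency between the promoters of the members and all windows, and the choice of members did not use promoter sequence. RefSeq windows from 250 bases before to 50 after a start were matched for 73 of the 87 members (78 windows) and for 9147 of the 11385 protein-coding rows (11760 windows). An NRF1 motif (GCGCANGCG, searched like the others on both strands) was held by 29.5% of the member windows, against 13.1% of all windows. YY1 (AAGATGGCG) was held by 10.3% against 3.04%, the ETS motif of GABPA (CCGGAAG) by 24.4% against 17.3%, and the ERR motif (TCAAGGTCA) by 2.56%, which is 2 windows, against 0.281%. CCAAT was held by 42.3% against 37.3% and TATAAA by 8.97% against 7.58%. The GC box GGGCGG was less common in the members, 44.9% against 61.4%. None of these 7 motifs contains another, although their matches can share bases. The median GC content of the windows was 59.0% for members and 60.7% for all.

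**Figure D5:**
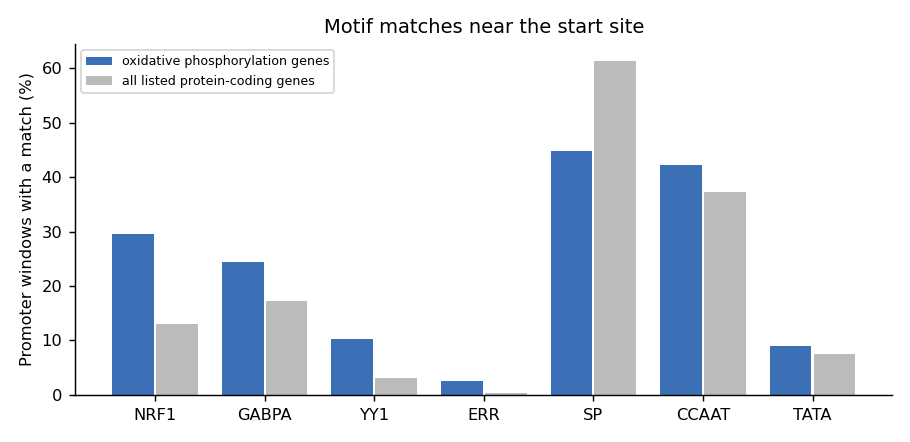
Share of promoter windows, in percent (y axis), that hold each of 7 motifs (x axis), for the 78 windows of the members (blue) and the 11760 windows of all listed protein-coding genes (grey). NRF1 stands at 29.5% against 13.1% and the GC box (SP) at 44.9% against 61.4%.

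By complex, NRF1 matches lay in 8 of 34 windows of complex I, 2 of 3 of complex II, 2 of 5 of complex III, 1 of 9 of complex IV and 7 of 18 of complex V. The 3 matches of the printed Sdha stretch end between 1 and 89 bases before the start, and the 3 matches of Ndufb4 end between 13 and 182 bases before it. YY1 matches were nearly all after the start, since only Atp5j held one in the 250 bases before it. The 22 genes with an NRF1 match had a median level of 425 normalized counts per kb and the 51 without one 328, and the ranges overlapped, from 14.1 to 2051 with a match and from 11.5 to 2905 without. Sdha, at 991, and Ndufb4, at 45.5 normalized counts per kb, each hold 3 separate matches. A match is a description of the letters in the window and not of a bound factor.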

How the data were processed

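Total RNA of 3 LL35 ASO and 3 Luc ASO livers was depleted of rRNA, made into directional libraries and sequenced. The AML12 cell libraries of the series were not analysed here. The authors aligned reads with STAR 2.5.3a, counted them per Ensembl gene and normalized the counts in DESeq2 by size factors (RLE). The deposited table gives 1 value per gene from these counts, a signal averaged over the compared libraries, which is used here as the mean normalized count. Its other number columns hold the authors' own comparison of the groups (log2 fold change, its standard error, Wald statistic, p-value and adjusted p-value) and were not used, so nothing is compared between the groups and no test was run. The genome build is not given in the sources used here.

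Exon length is the union of all annotated exons in GENCODE M21, which held 11754 of the 11779 row identifiers. A word of 50 bases, on either strand, was counted as shared when a transcript of another annotated gene held it. Levels were divided by length with Python 3.11.15, numpy 2.4.6 and pandas 2.3.3, correlations used scipy 1.17.1 and figures matplotlib 3.10.9. The word count, the motif search and the ratio of medians were tested on simulated data. Named genes are core subunits, the 3 highest and 3 lowest genes of each complex, isoform families, members that are not subunits and further genes from the lists (mitochondrially encoded subunits, assembly factors, regulators, cell type markers). Where every gene of a small complex is named, or a gene falls outside this rule, it was chosen after its values were seen. The value of a member is not reported here. The members and lists were chosen with earlier results of these data known. The alternatives were other lengths (median transcript, none, unique words), placement by symbol, a minimum mean normalized count of 50, the geometric mean, leaving out isoform families, another denominator of counts and a promoter window without the bases after the start. Coding length from the longest GENCODE coding sequence and the setting without members that share over 10% of their words were added after the data were seen.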

Additional observations from a re-analysis of the deposited data

How the results depend on the processing

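Complex I had the lowest median of the 5 complexes under the reported setting and each of the 9 alternatives. The order of the others changed with the length used, with placement by symbol and with the genes left out. Counting only unique words or taking the geometric mean left the order as reported. The alternative with a minimum mean normalized count removed no subunit, so it could not change the order of the complexes and does not bear on it. Values are medians over the median of the listed protein-coding genes, and a value counts as moved when it changed by over 1.5 times. With no division by length, complexes I to V stood at 1.88, 6.94, 6.04, 4.37 and 3.26, against 6.36, 16.5, 17.1, 16.5 and 7.16 as reported. This follows from the members' short exons, with a median of 1789 bases against 4597 for the listed protein-coding genes. With the median transcript length, complexes II and III stood at 9.12 and 11.3. Per coding length, complexes IV and V stood at 25.4 and 15.3. Without the isoform families complex IV, with fewer genes, stood at 6.63. In the 250 bases before the start alone, YY1 and ERR motifs were each held by 1.28% of the member windows, which is 1 window. Of all windows, 1.15% held YY1 there and 0.272% held ERR, so the YY1 share of the members was then close to that of all windows. Other medians, percentiles, motif shares and the share of counts stayed within that limit. The limit is wide for a percentile: the median subunit stood at percentile 77.7 with no division by length, against 92.3 as reported. Coding length from the RefSeq protein was not run, because no protein table was used here. Leaving out single mice could not be done, and depth per mouse is unknown. No paired analysis was possible because the table has no values for single mice.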

Other observations

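Per kb of exon, genes that build or regulate the complexes, other than the members, had medians far below the 434 of the subunits. The gap was smaller with no division by length. Median counts were then 185 for the assembly factors and 357 for the regulators, against 718 for the subunits. Of 41 assembly factors on the fixed list, 38 are among the rows, with a median of 65.8 normalized counts per kb and 23 above the median gene. Higd2a, a factor of complex IV and supercomplexes, was the highest per kb of exon at 463, and Lrpprc, which stabilizes mitochondrial mRNAs, reached 286 normalized counts per kb. With coding length the cytochrome c oxidase factor Coa5 was the highest at 4530, against 943 for Higd2a. The copper chaperone Cox17, at 13.9, was the only one below Atp5l, the lowest subunit. Per kb of coding sequence Cox17 stood at 423, above Atp5l at 294, so this order is seen on 1 scale and not on the other.

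All 12 regulators on the list are among the rows, with a median of 59.7 normalized counts per kb and 8 above the median gene. Yy1, at 181, Gabpa, at 149, Tfam, the packaging and transcription factor of mitochondrial DNA, at 119, and Esrra, at 115, were the highest. The coactivator Ppargc1a stood at 63.0 and Nrf1 at 21.5 normalized counts per kb, with only the GABPA partner Gabpb1 below it on this scale. With coding length, 6 of the 12 regulators lay below Nrf1, which stood at 138. These are levels of mRNA in whole liver, and no comparison with the subunits was tested.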
